A study of Homo sapiens with 12 samples.

Results

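Mitosis and chromosome segregation genes were followed in RNA sequencing of K562 cells, an established human chronic myeloid leukemia line that carries the BCR::ABL1 fusion kinase. The set was a list of 55 genes chosen by name for their known part in cell division. It was drawn up with earlier results of these data known, so the shares of members called are descriptive. All 55 were found among the 61541 Ensembl genes of a table of 62232 lines. All 55 also reached 1 TPM (a transcript level relative to transcript length and to the library total) in at least 3 libraries, the filter that left 15478 genes for testing. They were annotated as protein-coding and lay on 21 chromosomes, with at most 7 on any of them. The 4 groups held 3 libraries each: untreated control cells, cells given 25 µM MLN4924, cells given 0.5 µM imatinib, and cells given both drugs at those doses (imatinib + MLN4924), all at 12 h. MLN4924 blocks NEDD8 activation and so the attachment of this small modifier to cullins and other targets, and imatinib inhibits the BCR::ABL1 kinase. All groups came from the same cell line. Whether replicate libraries were made from different cultures is not given in the sources used here, and the p-values then measure only the spread between libraries, which may be technical.

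In a dividing cell, cyclin-dependent kinase 1 bound to A- and B-type cyclins starts mitosis, kinesins and other microtubule proteins build the spindle, and kinetochores attach each chromosome to it. A checkpoint holds back the anaphase-promoting complex until every kinetochore is attached, after which securin and the B-type cyclins are degraded, sister chromatids part, and a contractile ring splits the cell. Transcripts of these proteins rise in G2 and mitosis. They are regulated by the DREAM and MYB-MuvB complexes, which act through short promoter elements, and by the transcription factor FOXM1. In bulk RNA, a smaller share of cells in mitosis and less of a transcript per cell cannot be told apart.

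Values were deposited as TPM, so the sequencing depth is unknown. Between 13905 and 14937 genes reached 1 TPM in a library, and all 11 K562 markers fixed for the check, among them GATA1, BCR, ABL1 and the fetal and embryonic globins, were present at a mean of at least 1 TPM in every group. Their summed level was 15725 to 16288 TPM in control, 13962 to 16213 TPM with MLN4924, 42370 to 57662 TPM with imatinib and 16420 to 23257 TPM with both drugs. The 4 globins carried most of this sum, while GATA1 was at 189 to 206 TPM in control and 181 to 200.5 TPM with imatinib. The part of these markers in the members' changes was not tested. Of the lymphocyte markers CD2, MS4A1 and PAX5 were listed at 0 in all 12 libraries, as was ELANE of the granulocyte markers. Transcripts of the mitochondrial genome took 13.2 ± 0.43% of TPM in control (SD, n = 3), 13.4 ± 0.59% with MLN4924, 17.7 ± 0.47% with imatinib and 15.2 ± 0.44% with both, and their effect on the members was measured by rescaling TPM without them.

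The promoters of these genes are known for the cell cycle homology region (CHR, searched as TTTGAA or its reverse complement TTCAAA), which binds DREAM and MYB-MuvB, and for CCAAT boxes (CCAAT or ATTGG), which bind NF-Y. RefSeq promoter windows on GRCh38.p14, from 250 bases before to 50 after an annotated start, were matched to 47 of the 55 members. The upstream 140 bases of 8 members are shown because they carry these elements in different numbers, and because with imatinib against control CCNB1, CDC20, PLK1 and BUB1B did not rise while CCNB2, KIF4A, DLGAP5 and TOP2A rose. Capitals mark the motif letters, and the last base shown lies just before the RefSeq start.
CCNB1: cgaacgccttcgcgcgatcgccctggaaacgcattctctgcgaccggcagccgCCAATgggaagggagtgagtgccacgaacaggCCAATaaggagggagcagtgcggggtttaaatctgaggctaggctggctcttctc
CDC20: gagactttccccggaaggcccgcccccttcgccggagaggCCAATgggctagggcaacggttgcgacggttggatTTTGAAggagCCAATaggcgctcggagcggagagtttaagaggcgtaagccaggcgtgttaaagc
PLK1: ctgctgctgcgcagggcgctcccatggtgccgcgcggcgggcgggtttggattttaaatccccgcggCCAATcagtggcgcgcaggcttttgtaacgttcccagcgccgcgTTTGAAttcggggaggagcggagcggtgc
BUB1B: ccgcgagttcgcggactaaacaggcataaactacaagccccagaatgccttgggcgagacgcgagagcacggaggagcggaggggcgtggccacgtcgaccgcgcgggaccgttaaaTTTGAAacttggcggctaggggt
CCNB2: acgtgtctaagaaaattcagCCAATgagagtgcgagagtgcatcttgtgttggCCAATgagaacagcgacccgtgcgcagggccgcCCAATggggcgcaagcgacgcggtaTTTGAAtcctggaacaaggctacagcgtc
KIF4A: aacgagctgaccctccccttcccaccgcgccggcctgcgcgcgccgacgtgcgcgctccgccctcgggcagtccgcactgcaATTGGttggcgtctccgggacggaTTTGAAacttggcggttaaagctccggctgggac
DLGAP5: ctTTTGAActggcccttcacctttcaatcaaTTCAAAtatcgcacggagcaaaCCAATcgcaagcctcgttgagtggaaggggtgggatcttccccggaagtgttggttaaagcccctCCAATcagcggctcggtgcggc
TOP2A: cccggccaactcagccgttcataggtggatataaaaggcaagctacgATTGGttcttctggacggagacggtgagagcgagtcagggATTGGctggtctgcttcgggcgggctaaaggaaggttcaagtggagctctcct

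These windows lie at chr5:69167010-69167149, chr1:43358841-43358980, chr16:23678749-23678888, chr15:40160929-40161068, chr15:59105006-59105145 and chrX:70289964-70290103 on the plus strand, and at chr14:55191586-55191725 and chr17:40417897-40418036 on the minus strand. The upstream sequence of CCNB2 held 3 CCAAT boxes, whose first letters lay at positions -120, -87 and -54 from the start, and a CHR at -29. That of CDC20 had its CHR (-65) between CCAAT boxes at -100 and -55. CCNB1 and TOP2A showed CCAAT boxes and no CHR letters in this stretch (TOP2A held them farther out, at -194 and -151), and BUB1B showed a CHR at -23 with no CCAAT box. Over the whole 300-base windows, 33 of 47 members (70.2%) held a CHR, against 18.2% of the 27305 genes with a window. A CCAAT box was found in 37 members (78.7%, against 39.7%) and both elements in 26 (55.3%, against 7.26%). The letters of the 2 motifs can share 1 base. Among the members that rose with imatinib 24 of 32 (75%) held a CHR, and among the other members 9 of 15 (60%), whereas a CCAAT box was found in 24 of 32 (75%) and 13 of 15 (86.7%). For MLN4924 the CHR shares were 27 of 38 (71.1%) and 6 of 9 (66.7%), and the CCAAT shares 30 of 38 (78.9%) and 7 of 9 (77.8%). These are matches of letters, described without a test.

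The sum of the members rose with either drug, and most members had their highest mean with both. Their summed level was 3458 ± 49.0 TPM in control (SD, n = 3), 4474 ± 59.7 TPM with MLN4924, 4122 ± 78.3 TPM with imatinib and 5014 ± 76.8 TPM with both, and the libraries of these groups did not overlap. The imatinib + MLN4924 group had the highest mean for 46 of the 55 members, and control had the lowest for 46. Securin (PTTG1) was the most abundant member in every group, at 260.3 TPM in control and 418 TPM with both drugs, and SGO2 was the least abundant in every group, at 9.08 and 11.9 TPM. These levels are group means, and TPM allows levels of genes to be compared per length.

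Changes were tested with limma on log2(TPM + 1), with an adjusted p under 0.05 as the threshold, so fold changes are on that scale. With MLN4924 against control, 42 members rose, where 7.36% of all genes tested rose, and the median log2 fold change of the members was 0.37. No member fell past the threshold, where 7.11% of all genes fell; at an unadjusted p under 0.05, SPC24 was lower. With imatinib against control, 36 members rose, where 26.3% of all genes rose, and 2 fell (CCNB1 and CDC20), where 27.5% of all genes fell; the median was 0.25. With both drugs against control, 48 members rose (12.2% of all genes) and none fell by limma, at an unadjusted p under 0.05 either (13.9% of all genes fell), with a median of 0.53. Adding MLN4924 to imatinib raised 28 members (22.6% of all genes) and lowered SPC24 (20.5% of all genes), with a median of 0.23. Adding imatinib to MLN4924 raised 19 (7.73% of all genes) and lowered none, at an unadjusted p under 0.05 either (8.48% of all genes fell), with a median of 0.17. The medians over all genes tested lay between -0.0096 and 0.017 in these comparisons and the interaction.

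Members are well expressed, so the shares were also read among the 10401 genes with a mean of at least 5 TPM. There 9.14% of genes rose with MLN4924, 24.7% with imatinib, 14.5% with both drugs against control, 30.2% with both against imatinib and 9.25% with both against MLN4924. When each of the 12 libraries was left out in turn, the direction and the call held in all 12 fits for 33 of the 42 calls with MLN4924, 26 of the 38 with imatinib, 45 of the 48 with both drugs against control, 22 of the 29 with both against imatinib and 5 of the 19 with both against MLN4924. The last count was 19 in the full fit, 8, 9 and 5 without MLN4924 replicate 1, 2 or 3, and 5 and 6 without imatinib + MLN4924 replicate 1 or 2. Over all genes tested that count also fell, from 1196 in the full fit. It was 784, 662 and 658 without those MLN4924 replicates, and 542 and 561 without those imatinib + MLN4924 replicates. The 3 comparisons with control share its libraries, so their values are set side by side below and were not compared with each other.

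**Figure D1:**
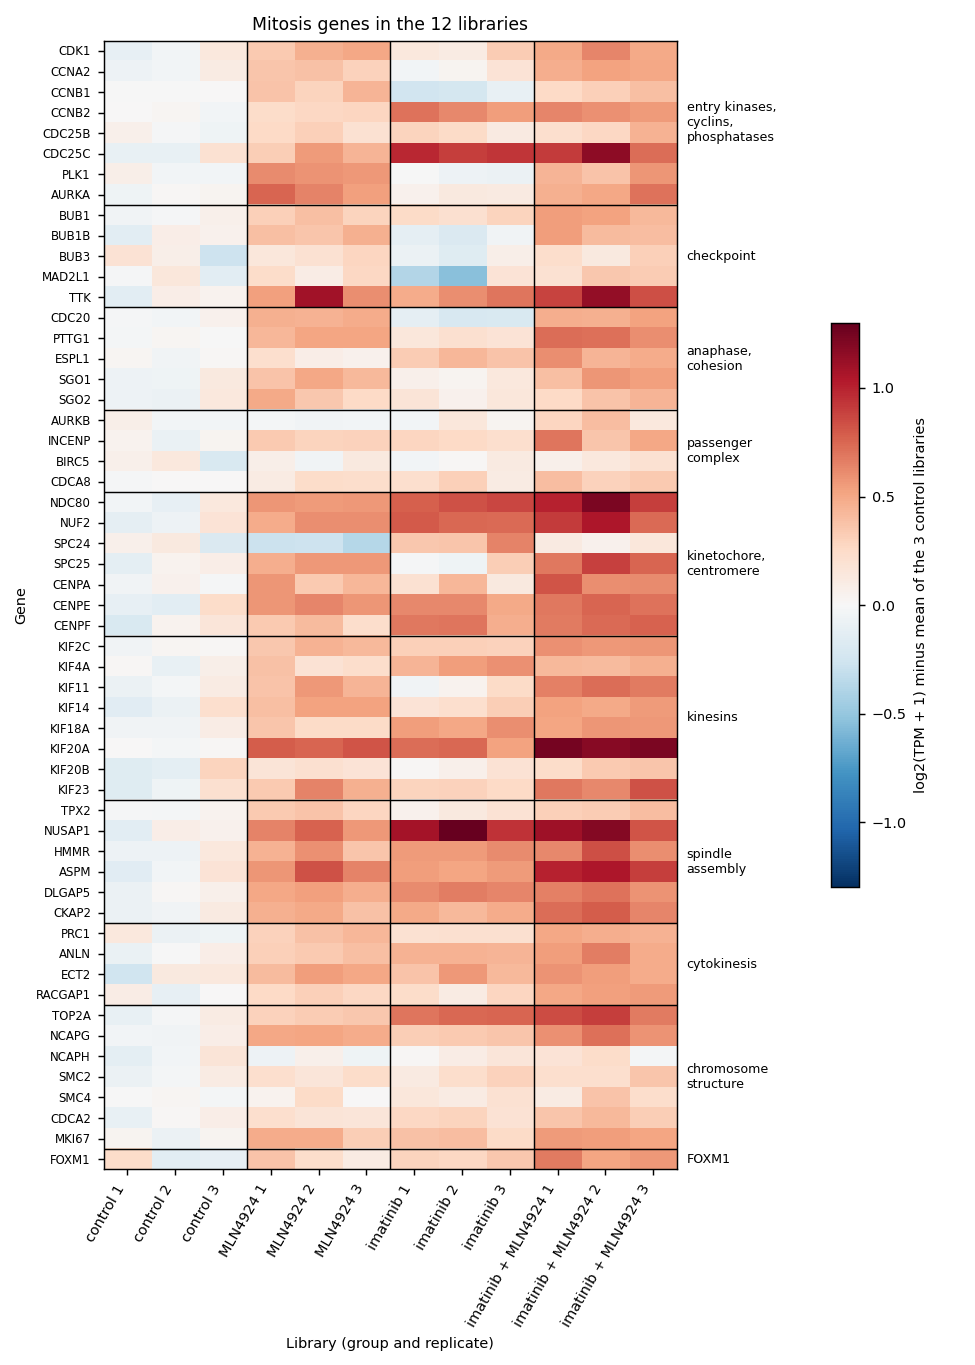
Each row is a member and each column a library. The color gives log2(TPM + 1) minus the mean of the 3 control libraries, with red for higher and blue for lower, and black lines part the roles and the groups. In the imatinib + MLN4924 libraries 54 or 55 of the 55 members lie above the control mean, and the imatinib libraries show blue cells for CCNB1, CDC20 and BUB1B.

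Genes of mitotic entry all rose with MLN4924, by 0.25 to 0.64 on the log2 scale, while imatinib raised 3 of the 8 (CCNB2, CDC25B and CDC25C), lowered CCNB1 and left 4 without a call. All 8 rose with both drugs against control. For the counts by role here and below, 7.36% of all genes tested rose and 7.11% fell with MLN4924. With imatinib 26.3% rose and 27.5% fell, and with both drugs against control 12.2% rose and 13.9% fell. CCNB1 encodes cyclin B1, the main partner of CDK1 in mitosis. It stood at 227, 227 and 229 TPM in control, 191, 194 and 212 TPM with imatinib, 296, 278 and 309.7 TPM with MLN4924 and 274, 283 and 299 TPM with both drugs. Every imatinib library lay below every control library, and both groups with MLN4924 lay above control. The fall with imatinib was small (log2 fold change -0.19, SE 0.060, limma adjusted p = 0.0169), the rise with MLN4924 was 0.37 (limma adjusted p = 0.00221), and adding MLN4924 to imatinib raised it by 0.51 (limma adjusted p = 9.35e-05). The fall was not called without imatinib replicate 1 or 2 (adjusted p up to 0.0681), nor when TPM was rescaled without mitochondrial transcripts (-0.12, adjusted p = 0.103).

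Its relative CCNB2, cyclin B2, behaved otherwise. CCNB2 levels were 78.7, 79.9 and 76.5 TPM in control, 92.7, 94.8 and 95.4 TPM with MLN4924, 128, 121 and 115 TPM with imatinib and 122, 119 and 116 TPM with both. Imatinib raised it 1.54-fold (log2 fold change 0.62, SE 0.055, limma adjusted p = 7.93e-06), and imatinib with and without MLN4924 overlapped. CDC25C, a phosphatase that activates CDK1, rose most of this group with imatinib, from 14.4 ± 1.8 TPM to 28.3 ± 0.78 TPM (mean ± SD, n = 3; log2 fold change 0.93, SE 0.12, limma adjusted p = 6.38e-05). With both drugs it was at 28.5 ± 4.5 TPM, a difference of -0.00058 from imatinib alone with a 95% interval of -0.26 to 0.26. Its rise with MLN4924 alone, 0.44, was not called without control replicate 1 or 2, or MLN4924 replicate 2 or 3 (adjusted p up to 0.110). CDC25B, a phosphatase of the same family, rose by 0.22 with imatinib, not called without control replicate 2 or 3, or imatinib replicate 1 or 2 (adjusted p up to 0.106), and by 0.25 with MLN4924, a call that held in 2 of the 12 fits that left out a library (those without imatinib replicate 3, or imatinib + MLN4924 replicate 3, adjusted p up to 0.152 in the others).

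The kinases CDK1, PLK1 and AURKA rose with MLN4924 and were not called with imatinib alone. PLK1, a polo-like kinase that acts at centrosomes and kinetochores, was at 118, 109 and 110.1 TPM in control and 112, 108 and 107 TPM with imatinib, where the groups overlapped (log2 fold change -0.048, SE 0.060, limma adjusted p = 0.526). It was at 172, 169 and 167 TPM with MLN4924 (log2 fold change 0.59, limma adjusted p = 0.000136) and at 153, 146 and 168 TPM with both drugs, above imatinib alone by 0.51 (limma adjusted p = 0.000108). The libraries with MLN4924 all lay above those without it. AURKA, the kinase of the spindle poles, went from 71.5 ± 2.3 TPM to 112 ± 9.0 TPM with MLN4924 and from 76.6 ± 2.1 TPM to 106 ± 9.8 TPM when it was added to imatinib (log2 fold changes 0.64, limma adjusted p = 0.000348, and 0.46, limma adjusted p = 0.000819). CDK1, the kinase that drives entry into mitosis, rose by 0.43 (limma adjusted p = 0.00527) with MLN4924. With imatinib it changed by 0.19 with a 95% interval of 0.010 to 0.37 (limma adjusted p = 0.0703), and this passed the threshold under median-of-ratios scaling (adjusted p = 0.0494), with the replicate block (adjusted p = 0.0445) and after rescaling without mitochondrial transcripts (0.27, adjusted p = 0.0164). CCNA2, cyclin A2, went from 121 ± 7.7 to 154 ± 4.5 TPM with MLN4924 (limma adjusted p = 0.00527) and was at 126 ± 9.6 TPM with imatinib.

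The spindle checkpoint was split. BUB1 and TTK rose with either drug, BUB1B rose in both comparisons that add MLN4924, and BUB3 was not called in any comparison. BUB1B encodes BubR1, a part of the complex that inhibits CDC20. Its levels were 43.5, 51.2 and 49.8 TPM in control, 44.2, 42.02 and 46.5 TPM with imatinib, 63.5, 61.97 and 66.6 TPM with MLN4924 and 70.5, 64.2 and 63.8 TPM with both. Adding MLN4924 to imatinib raised it 1.48-fold (log2 fold change 0.57, SE 0.076, limma adjusted p = 0.000205), with no overlap of the libraries. With imatinib alone the difference from control was -0.12 (95% interval -0.28 to 0.047, limma adjusted p = 0.207).

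TTK, the kinase that starts checkpoint signaling at kinetochores, was at 25.7, 30.2 and 29.3 TPM in control, 41.5, 61.5 and 43.8 TPM with MLN4924, 40.1, 43.8 and 46.6 TPM with imatinib and 53.1, 63.6 and 51.4 TPM with both. All 9 drug-treated libraries were above all control libraries, and MLN4924 replicate 2 stood above the other MLN4924 libraries. The log2 fold changes from control were 0.74 (limma adjusted p = 0.00482) with MLN4924, 0.60 (limma adjusted p = 0.00365) with imatinib and 0.95 (limma adjusted p = 0.000701) with both. BUB1, a checkpoint kinase, rose by 0.33 with MLN4924 (limma adjusted p = 0.00321) and by 0.25 with imatinib (limma adjusted p = 0.00363). MAD2L1, the checkpoint protein that binds CDC20, varied widely with imatinib, at 57.5, 51.02 and 84.98 TPM against 85.97, 96.04 and 94.8 TPM with both drugs. The difference between those groups was 0.54 (limma adjusted p = 0.0142), and it was not called without imatinib replicate 1 or 2 (adjusted p up to 0.0615). BUB3, another checkpoint protein that sits at kinetochores, was at 174 ± 27.6 TPM in control and 202 ± 12.4 TPM with both drugs, with an interval of the difference of -0.012 to 0.45 on the log2 scale. Its difference of 0.27 on adding MLN4924 to imatinib (limma adjusted p = 0.0563) passed the threshold under the 5 TPM filter and with only the libraries compared, as did that of TTK.

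Among the genes of anaphase onset and sister cohesion, 4 of 5 rose with MLN4924 and all 5 with both drugs against control, while imatinib raised PTTG1 and ESPL1 and lowered CDC20. CDC20, the activator of the anaphase-promoting complex, was at 134, 132 and 140.1 TPM in control and 124, 117 and 118 TPM with imatinib. It was at 187, 186 and 189 TPM with MLN4924 and 188, 187 and 194 TPM with both drugs. The groups with MLN4924 overlapped each other and lay wholly above those without it. Imatinib lowered it to 0.89 of control (log2 fold change -0.17, SE 0.048, limma adjusted p = 0.00984), a call that was lost after rescaling without mitochondrial transcripts (-0.099, adjusted p = 0.105), and adding MLN4924 to imatinib raised it 1.58-fold (log2 fold change 0.66, SE 0.048, limma adjusted p = 5.58e-06).

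ESPL1, separase, the protease that cuts cohesin, showed the other order. ESPL1 was at 42.3, 39.9 and 41.95 TPM in control, 48.2, 44.03 and 43.1 TPM with MLN4924, 52.4, 56.2 and 53.7 TPM with imatinib and 63.6, 56.5 and 58.3 TPM with both. Its changes with imatinib were close with and without MLN4924 (0.39, limma adjusted p = 0.00435, and 0.38, limma adjusted p = 0.000631), and those with MLN4924 were 0.12 and 0.13 and not called. PTTG1, securin, the inhibitor of separase, rose in all 5 comparisons, from 260.3 ± 4.7 TPM in control to 365 ± 12.2 TPM with MLN4924, 295 ± 6.6 TPM with imatinib and 418 ± 19.01 TPM with both. Its rise of 0.20 on adding imatinib to MLN4924 was not called without MLN4924 replicate 1, 2 or 3, or imatinib + MLN4924 replicate 1 or 2 (adjusted p up to 0.103). Of the shugoshins, which protect cohesin at centromeres, SGO1 rose by 0.43 (limma adjusted p = 0.00400) and SGO2 by 0.37 (limma adjusted p = 0.0254) with MLN4924. The call of SGO2 was lost without control replicate 1 or 2, or MLN4924 replicate 1 or 2 (adjusted p up to 0.0922). With imatinib their differences from control were 0.079 and 0.12 and were not called.

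In the chromosomal passenger complex 1 of 4 genes rose with MLN4924, 2 with imatinib and 3 with both drugs against control. AURKB, its kinase, was at 73.98, 68.2 and 68.5 TPM in control, 68.8, 68.02 and 68.3 TPM with MLN4924 and 68.4, 77.6 and 72.1 TPM with imatinib, and these groups overlapped. With both drugs it was at 85.3, 93.1 and 77.05 TPM, above control by 0.27 (limma adjusted p = 0.0211). That call was lost without control replicate 2 or 3, or imatinib + MLN4924 replicate 1 or 2 (adjusted p up to 0.0850). INCENP, the scaffold, rose by 0.31 (limma adjusted p = 0.0262) with MLN4924 and 0.25 (limma adjusted p = 0.0204) with imatinib, from 30.3 ± 1.6 TPM, and was at 43.99 ± 5.2 TPM with both; the MLN4924 call was lost without control replicate 2, or MLN4924 replicate 1, 2 or 3 (adjusted p up to 0.101) and the imatinib call without control replicate 2, or imatinib replicate 1 or 2 (adjusted p up to 0.0804). CDCA8, borealin, rose by 0.21 (limma adjusted p = 0.0156) with imatinib, not called without imatinib replicate 2 (adjusted p up to 0.0718). BIRC5, survivin, was at 70.9 ± 8.4, 73.4 ± 4.6, 72.3 ± 4.2 and 77.7 ± 3.6 TPM in control, MLN4924, imatinib and both, with an interval for both drugs against control of -0.059 to 0.33 on the log2 scale.

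Of the kinetochore and centromere genes, all but SPC24 rose with MLN4924 and with both drugs against control, and all but SPC25 rose with imatinib, with median log2 fold changes over the 7 genes of 0.53, 0.72 and 0.58. The 4 subunits of the NDC80 complex, which binds spindle microtubules, did not move together. NDC80 was at 38.1, 36.2 and 42.9 TPM in control, 58.6, 57.6 and 58.3 TPM with MLN4924, 67.6, 69.8 and 71.8 TPM with imatinib and 78.8, 92.2 and 73.8 TPM with both. The 4 groups did not overlap, and both drugs together raised the level 2.06-fold (log2 fold change 1.04, SE 0.085, limma adjusted p = 1.44e-05). NUF2, its dimer partner, followed with changes of 0.57 (limma adjusted p = 0.00230) with MLN4924, 0.76 (limma adjusted p = 5.10e-05) with imatinib and 0.90 (limma adjusted p = 7.40e-05) with both.

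SPC25 rose where MLN4924 was added and was not called with imatinib alone (0.083, 95% interval -0.14 to 0.30). SPC25 stood at 59.2, 67.05 and 68.95 TPM in control and 64.2, 62.6 and 81.2 TPM with imatinib, and at 90.2, 96.2 and 96.5 TPM with MLN4924 and 105.3, 121 and 110.5 TPM with both. The rise on adding MLN4924 to imatinib was 1.62-fold (log2 fold change 0.70, SE 0.10, limma adjusted p = 0.000332), the largest of the members in that comparison. SPC24, the partner of SPC25, was at 69.1, 71.8 and 57.5 TPM in control, 54.2, 54.5 and 50.8 TPM with MLN4924, 84.1, 84.9 and 103 TPM with imatinib and 71.4, 68.3 and 72.8 TPM with both. Imatinib raised it (log2 fold change 0.45, SE 0.096, limma adjusted p = 0.00213), and adding MLN4924 to imatinib lowered it (log2 fold change -0.35, SE 0.096, limma adjusted p = 0.0132). With MLN4924 alone it was lower in every library than in control (-0.30), with an adjusted p of 0.0573 that passed the threshold under median-of-ratios scaling (0.0408) and under a filter of 5 TPM (0.0477). SPC24 was the only member lower past the threshold when MLN4924 was added to imatinib.

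CENPE, a kinesin that carries chromosomes at the kinetochore, was at 15.5, 15.1 and 19.97 TPM in control and rose with MLN4924 (0.59, limma adjusted p = 0.00223) and imatinib (0.58, limma adjusted p = 0.000411). With both drugs it was at 27.5, 28.9 and 27.8 TPM, above control by 0.71 (limma adjusted p = 0.000418). CENPF, a large kinetochore protein, rose by 0.61 (limma adjusted p = 0.000283) with imatinib, and by 0.33 with MLN4924, a call that held in 2 of the 12 fits that left out a library (those without control replicate 3, or imatinib replicate 3, adjusted p up to 0.147 in the others). CENPA, the histone variant that marks centromeres, went from 25.9 ± 0.95 TPM in control to 35.8 ± 3.0 TPM with MLN4924 (limma adjusted p = 0.0100), and its rise of 0.25 with imatinib held in 4 of the 12 fits that left out a library (those without MLN4924 replicate 1 or 2, imatinib replicate 3, or imatinib + MLN4924 replicate 1, adjusted p up to 0.191 in the others).

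The kinesins rose in 7 of 8 cases with MLN4924, 6 of 8 with imatinib and 7 of 8 with both drugs against control, and KIF20B, a motor of late mitosis, was not called in any of them. KIF20A, a motor of the central spindle, had the largest rise of all members with MLN4924 and with both drugs. It was at 31.6, 30.9 and 31.9 TPM in control, 54.96, 53.7 and 56.4 TPM with MLN4924, 52.6, 53.4 and 45.6 TPM with imatinib and 75.9, 72.6 and 74.9 TPM with both. All drug-treated libraries lay above control, and those with both drugs lay above all others. The rise was 1.72-fold with MLN4924 (log2 fold change 0.79, SE 0.066, limma adjusted p = 3.36e-05), 1.58-fold with imatinib (log2 fold change 0.66, SE 0.066, limma adjusted p = 1.57e-05) and 2.32-fold with both (log2 fold change 1.22, SE 0.066, limma adjusted p = 9.61e-07).

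KIF11, the motor that pushes the spindle poles apart, was at 19.8, 20.4 and 22.4 TPM in control and 20.2, 21.5 and 24.9 TPM with imatinib, which overlapped. It was at 27.2, 31.2 and 28.6 TPM with MLN4924 and 33.4, 35.2 and 33.9 TPM with both drugs, a rise over imatinib of 0.60 (limma adjusted p = 0.000352). KIF4A, a motor on chromosome arms, showed another order. KIF4A was at 23.2, 21.4 and 24.2 TPM in control, 30.1, 26.3 and 27.00 TPM with MLN4924, 31.5, 33.8 and 35.1 TPM with imatinib and 30.97, 30.9 and 32.04 TPM with both. Its rise was 0.53 (limma adjusted p = 0.000141) with imatinib and 0.26 (limma adjusted p = 0.0362) with MLN4924. The latter held in 5 of the 12 fits that left out a library (those without control replicate 3, imatinib replicate 1 or 3, or imatinib + MLN4924 replicate 2 or 3, adjusted p up to 0.135 in the others). KIF18A, which limits microtubule length at kinetochores, had a like order, with 0.55 for imatinib (limma adjusted p = 7.02e-05) and 0.29 for MLN4924 (limma adjusted p = 0.0192), the latter not called without control replicate 1 or 2, or MLN4924 replicate 1 (adjusted p up to 0.0745). KIF2C, a microtubule depolymerase and the most abundant kinesin of the list, rose in all 5 comparisons, from 139 ± 3.7 TPM in control to 207 ± 2.8 TPM with both drugs. Its rise of 0.17 on adding imatinib to MLN4924 held in 6 of the 12 fits that left out a library (those without control replicate 1 or 3, imatinib replicate 1, 2 or 3, or imatinib + MLN4924 replicate 3, adjusted p up to 0.124 in the others). KIF14 and KIF23, motors of cytokinesis, rose by 0.48 each with MLN4924, which for KIF23 was not called without MLN4924 replicate 2 (adjusted p up to 0.0519). The rise of KIF14 with imatinib, 0.24, held in 1 of the 12 fits that left out a library (those without control replicate 3, adjusted p up to 0.177 in the others). That of KIF23, 0.28, was not called without control replicate 1 or 2, MLN4924 replicate 3, imatinib replicate 1, 2 or 3, or imatinib + MLN4924 replicate 1 (adjusted p up to 0.154). KIF20B varied in control, at 14.6, 14.9 and 20.3 TPM, and its difference of 0.32 with both drugs (limma adjusted p = 0.0547) passed the threshold under 4 alternative settings.

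Spindle assembly genes all rose with MLN4924 and with both drugs, and all but TPX2 rose with imatinib. NUSAP1, which bundles microtubules around chromosomes, had the largest rise of any member with imatinib. Its levels were 68.7, 80.2 and 78.9 TPM in control, 119, 129.7 and 112 TPM with MLN4924, 161, 191 and 147 TPM with imatinib and 163, 174 and 134 TPM with both. Both groups with imatinib spread widely and overlapped each other. The rise was 2.17-fold with imatinib (log2 fold change 1.11, SE 0.12, limma adjusted p = 2.07e-05) and 1.58-fold with MLN4924 (log2 fold change 0.66, SE 0.12, limma adjusted p = 0.00370). ASPM, a spindle pole protein, was at 18.6, 20.1 and 23.6 TPM in control, 31.2, 37.5 and 32.9 TPM with MLN4924, 30.7, 29.9 and 30.8 TPM with imatinib and 42.5, 44.1 and 39.5 TPM with both. Here the group with both drugs lay above the others, with a rise over control of 0.99 (limma adjusted p = 4.21e-05).

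DLGAP5, which stabilizes kinetochore fibers, was at 37.1, 39.5 and 40.8 TPM in control, 55.96, 57.2 and 54.8 TPM with MLN4924, 60.3, 62.6 and 61.1 TPM with imatinib and 62.1, 64.2 and 59.2 TPM with both. Every drug group lay above control, and imatinib with and without MLN4924 overlapped (difference 0.012, 95% interval -0.12 to 0.14). TPX2, the activator of AURKA, rose by 0.33 (limma adjusted p = 0.00236) with MLN4924 and differed from control by 0.13 with imatinib (limma adjusted p = 0.0718), a difference that passed the threshold under median-of-ratios scaling (adjusted p = 0.0152) and after rescaling without mitochondrial transcripts (adjusted p = 0.0101). HMMR and CKAP2, which bind spindle microtubules, rose by 0.57 and 0.47 with imatinib and by 0.47 and 0.45 with MLN4924.

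The 4 cytokinesis genes rose with each drug and with both. ECT2, the exchange factor that activates RhoA at the division plane, was at 12.8, 17.01 and 17.2 TPM in control, 21.03, 23.1 and 22.5 TPM with MLN4924, 20.4, 23.5 and 21.1 TPM with imatinib and 23.7, 23.02 and 22.1 TPM with both. The drug groups overlapped each other and lay above control, with changes of 0.49 (limma adjusted p = 0.0109) with MLN4924 and 0.45 (limma adjusted p = 0.00395) with imatinib. RACGAP1, the partner of KIF23 in the central spindle, rose from 63.6 ± 4.6 TPM in control to 92.01 ± 1.6 TPM with both drugs (log2 fold change 0.53, SE 0.066, limma adjusted p = 0.000259). Its rise with imatinib alone, 0.21, was not called without control replicate 2, or imatinib replicate 1 or 3 (adjusted p up to 0.0891), and that with MLN4924 alone, 0.28, not without control replicate 2, or MLN4924 replicate 2 or 3 (adjusted p up to 0.0734). ANLN, anillin, rose by 0.45 with imatinib (limma adjusted p = 0.000188) and 0.35 with MLN4924 (limma adjusted p = 0.00567). PRC1, which bundles midzone microtubules, rose by 0.20 and 0.37, with the imatinib call lost without control replicate 2 or 3 (adjusted p up to 0.0749).

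Genes of chromosome structure rose in 3 of 7 cases with MLN4924 (TOP2A, NCAPG and MKI67) and 5 of 7 with imatinib, which added SMC2 and CDCA2. TOP2A, the topoisomerase that untangles sister chromatids, was at 109, 116 and 126 TPM in control, 144, 147 and 149 TPM with MLN4924, 189.6, 197 and 198 TPM with imatinib and 211, 218 and 187 TPM with both. It rose 1.66-fold with imatinib (log2 fold change 0.73, SE 0.069, limma adjusted p = 1.11e-05) and 1.25-fold with MLN4924 (log2 fold change 0.32, SE 0.069, limma adjusted p = 0.00935), and imatinib with and without MLN4924 overlapped. MKI67, the proliferation antigen Ki-67, which coats mitotic chromosomes, went from 45.3 ± 2.1 TPM in control to 61.4 ± 3.9 TPM with MLN4924 (log2 fold change 0.43, SE 0.067, limma adjusted p = 0.00179) and 57.8 ± 3.2 TPM with imatinib (log2 fold change 0.34, SE 0.067, limma adjusted p = 0.00122). Of the condensin I subunits, NCAPG rose by 0.50 (limma adjusted p = 0.000324) with MLN4924 and 0.34 (limma adjusted p = 0.000524) with imatinib, whereas NCAPH was at 64.9 ± 6.9, 63.9 ± 3.5, 68.9 ± 3.6 and 71.02 ± 6.6 TPM in control, MLN4924, imatinib and both and was not called. SMC4, the condensin ATPase, differed from control by 0.23 with both drugs (limma adjusted p = 0.0535), and this passed the threshold under 4 alternative settings. The imatinib call of SMC2, the other condensin ATPase, was lost without control replicate 1 or 2, or imatinib replicate 2 or 3 (adjusted p up to 0.114), and that of CDCA2, a chromatin-bound phosphatase subunit, without control replicate 1 (adjusted p up to 0.0517).

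FOXM1, the transcription factor of many of these genes, was at 38.4, 29.4 and 29.9 TPM in control, 42.05, 38.1 and 34.8 TPM with MLN4924, 39.6, 39.2 and 41.6 TPM with imatinib and 52.1, 46.4 and 48.2 TPM with both. Control replicate 1 stood above the other control libraries and within the range of the MLN4924 libraries. The rise with both drugs was 0.58 (limma adjusted p = 0.00229), that with imatinib 0.30 (limma adjusted p = 0.0273), and the difference with MLN4924 was 0.24 (95% interval 0.0087 to 0.46, limma adjusted p = 0.161). The imatinib call was lost without control replicate 2 or 3, or imatinib replicate 1, 2 or 3 (adjusted p up to 0.107).

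**Figure D2:**
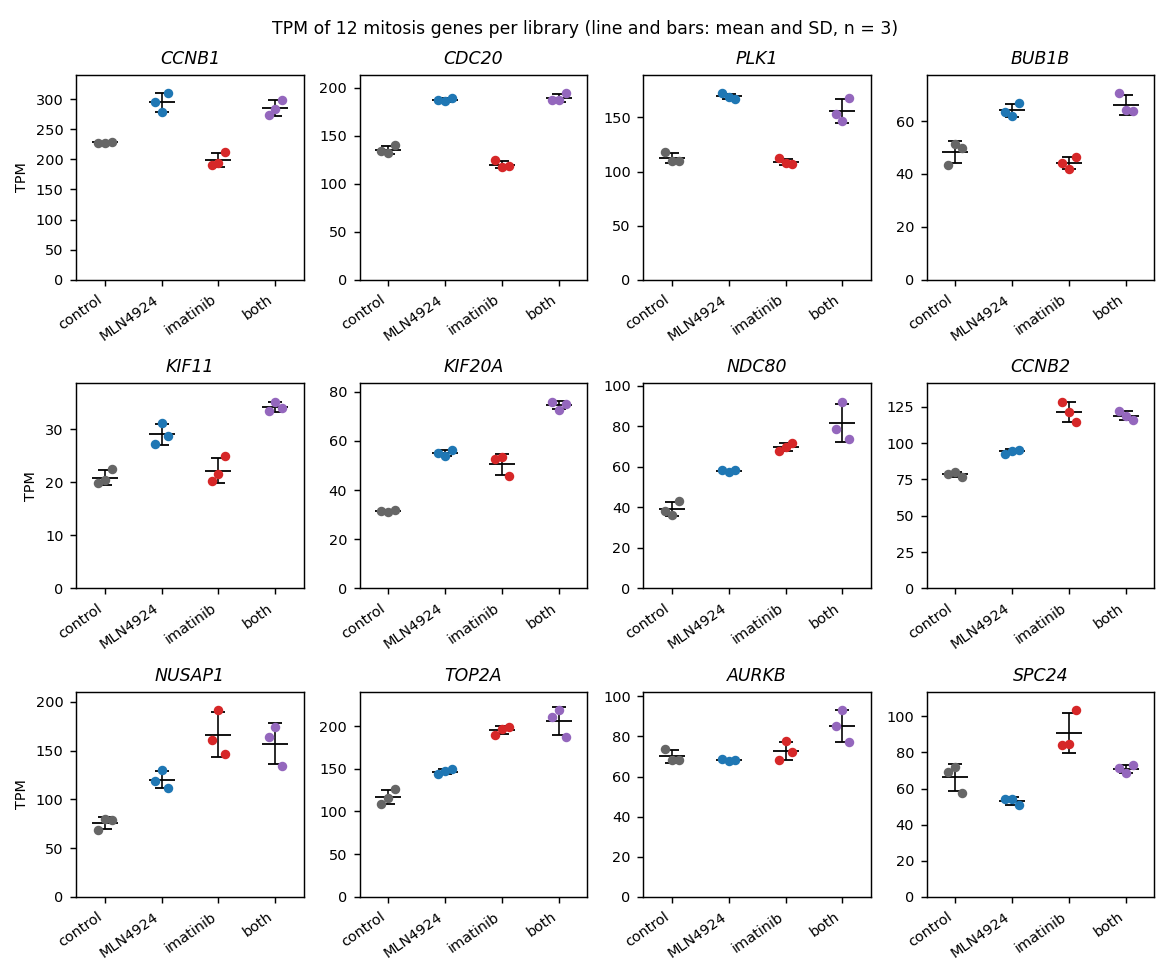
TPM of 12 members on linear axes that start at 0, with 1 point per library, a line at the mean and bars of 1 SD (n = 3); both stands for imatinib + MLN4924. For CDC20 and PLK1 the groups with MLN4924 lie above those without it, for CCNB2, NUSAP1 and TOP2A the groups with imatinib lie highest, and for KIF20A the group with both drugs lies above all others.

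The effect of a drug can be compared with and without the other drug in comparisons that share no library. Imatinib raised 36 members without MLN4924 (26.3% of all genes) and 19 with it (7.73% of all genes), of which 18 were raised in both, 50% of the former and 94.7% of the latter. The count of 19 ranged from 5 to 21 when a library was left out, and that over all genes tested from 542 to 1382. The effect was larger without MLN4924 for 39 of the 55 members, with medians of 0.25 and 0.17. MLN4924 raised 42 members without imatinib (7.36% of all genes) and 28 with it (22.6% of all genes), of which 25 were raised in both, 59.5% of the former and 89.3% of the latter. Neither these overlaps nor the 39 of 55 were counted over all genes tested. They are therefore not shown to be particular to the members. The MLN4924 effect was larger without imatinib for the same 39 members. By arithmetic this had to follow from the imatinib effects, so it is not a second observation. The medians of the MLN4924 effect were 0.37 and 0.23. By roles, the median effect of adding MLN4924 to imatinib was 0.39 for mitotic entry, 0.42 for anaphase onset and cohesion, 0.36 for the checkpoint and 0.28 for kinesins, and 0.14 for kinetochore genes, 0.17 for spindle assembly, 0.19 for cytokinesis, 0.18 for the chromosomal passenger complex and 0.084 for chromosome structure. Without imatinib these medians were 0.40, 0.43, 0.33, 0.43, 0.53, 0.49, 0.36, 0.12 and 0.21. Those of the checkpoint and the passenger complex were thus larger with imatinib, a difference that was not tested by role. In the interaction tested below no gene of these 2 roles was called, and 3 of 5 and 2 of 4 were positive. FOXM1 alone was at 0.28 with imatinib and 0.24 without.

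The interaction, the effect of imatinib with MLN4924 minus that without it, was tested for each gene. It was negative past the threshold for 6 members, where 7.35% of all genes were lower, and positive for none, where 9.06% of all genes were higher; limma gave 2 positive and 16 negative at an unadjusted p under 0.05. The 6 were NUSAP1 (-0.74, limma adjusted p = 0.0167), DLGAP5 (-0.49, limma adjusted p = 0.00568), CENPE (-0.46, limma adjusted p = 0.0420), NUF2 (-0.43, limma adjusted p = 0.0462), KIF4A (-0.36, limma adjusted p = 0.0414) and CCNB2 (-0.29, limma adjusted p = 0.0289). Each was raised by imatinib alone and by MLN4924 alone, and the differences between both drugs and imatinib alone were -0.094 to 0.14, none of them called. NUSAP1 and DLGAP5 held the call in all 12 fits that left out a library. The count fell to 2 without control replicate 1 or 2, MLN4924 replicate 2 or 3, imatinib replicate 1 or 2 or imatinib + MLN4924 replicate 3, and to 3 without MLN4924 replicate 1 or imatinib + MLN4924 replicate 1. Over all genes tested the negative calls fell from 1138 to between 481 and 837 in the former fits, and to 773 and 880 in the latter. For the members whose levels followed MLN4924, the interaction was 0.15 for CCNB1, 0.19 for CDC20, -0.076 for PLK1 and 0.16 for BUB1B, none of them called (limma adjusted p = 0.248, 0.0755, 0.577 and 0.315).

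**Figure D3:**
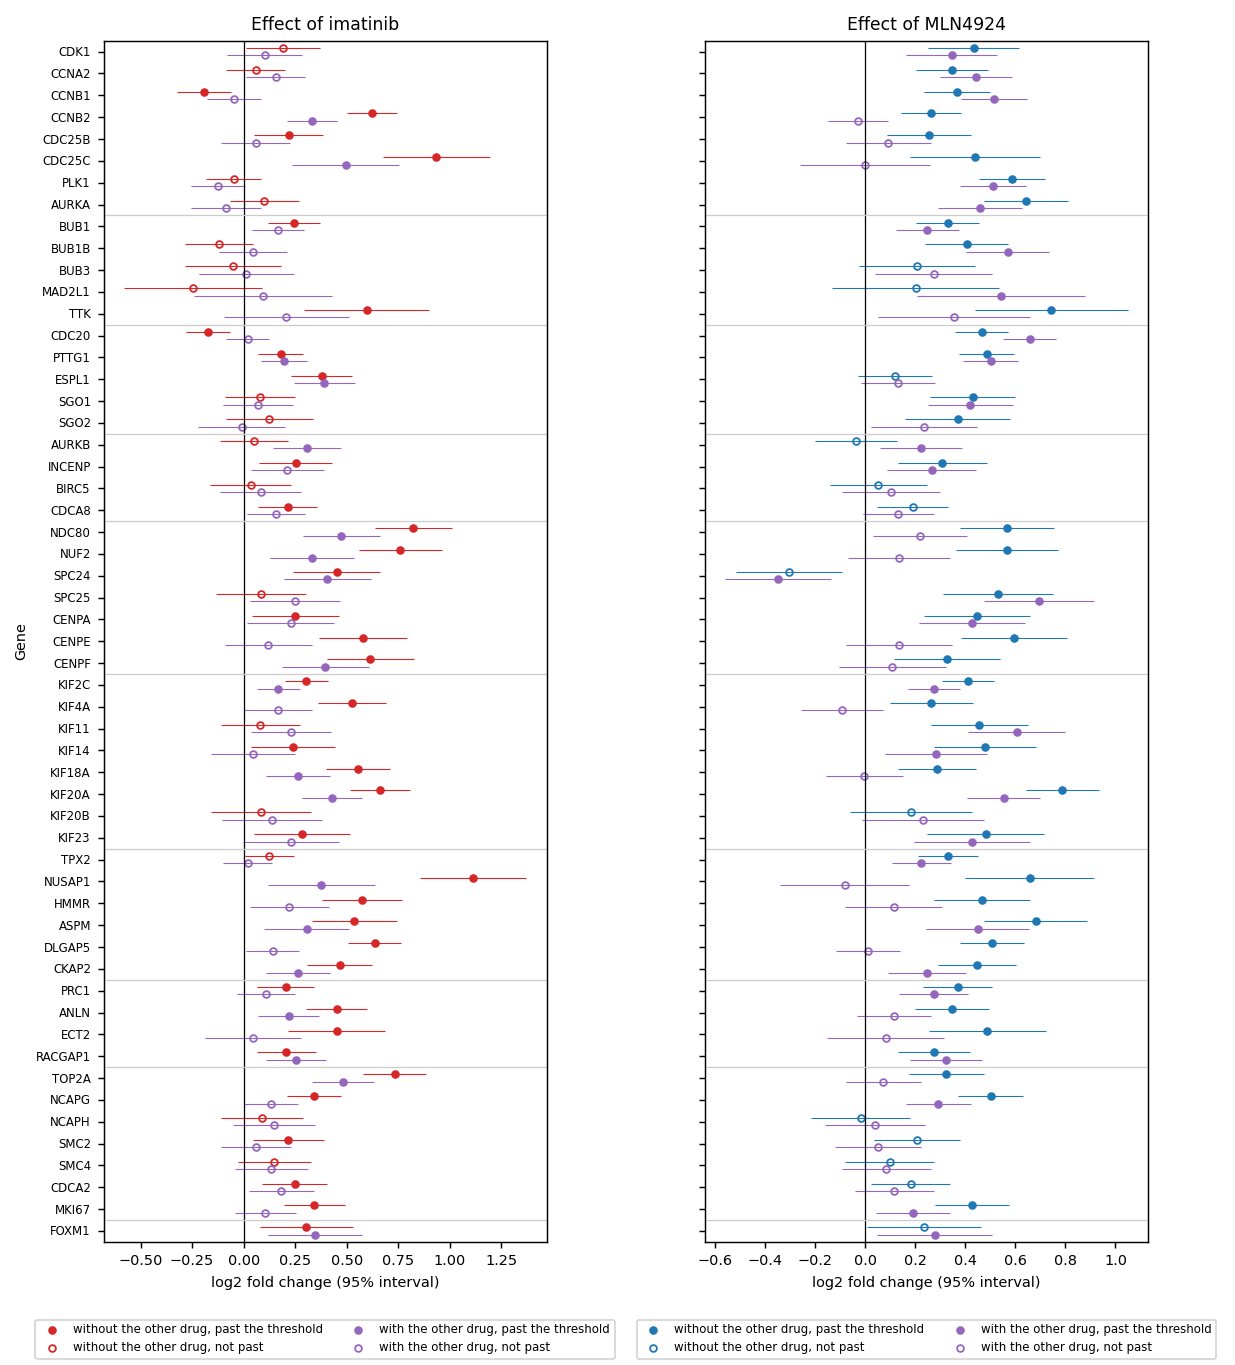
Log2 fold changes of the 55 members with 95% intervals from limma, for imatinib on the left and MLN4924 on the right, without the other drug and with it. Filled points passed the adjusted p threshold of 0.05 and gray lines part the roles. For NUSAP1 the imatinib effect is 1.11 without MLN4924 and 0.38 with it, and for CDC20 the MLN4924 effect is 0.47 without imatinib and 0.66 with it.

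Other genes of cell division were read from lists of 126 genes in all, also drawn up with earlier results of these data known. Of 18 genes of the anaphase-promoting complex and its partners, 3 rose and 4 fell with imatinib (26.3% and 27.5% of all genes). With MLN4924 1 gene of this complex and its partners rose (FZR1) and 1 fell (ANAPC5), against 7.36% and 7.11% of all genes. ANAPC1, its largest subunit, was at 40.1, 40.7 and 54.7 TPM in control, 40.5, 41.5 and 41.3 TPM with MLN4924, 20.6, 21.6 and 25.4 TPM with imatinib and 31.3, 30.02 and 31.8 TPM with both. The imatinib libraries lay below all others (log2 fold change -0.96, SE 0.11, limma adjusted p = 4.03e-05), and ANAPC2, the cullin subunit, rose by 0.22 (limma adjusted p = 0.0257), not called without control replicate 2 or 3, or imatinib replicate 1 or 2 (adjusted p up to 0.103), nor with only the libraries compared. Chosen after their values were seen, FZR1, the activator that replaces CDC20 after anaphase, rose by 0.44 (limma adjusted p = 0.0117) with MLN4924, and UBE2S, a ubiquitin-conjugating enzyme of the complex, fell by 1.23 (limma adjusted p = 0.00457) on the log2 scale with imatinib.

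Of 28 other kinetochore and checkpoint genes, 12 rose and 6 fell with imatinib (26.3% and 27.5% of all genes). With MLN4924 4 rose and 2 fell (7.36% and 7.11% of all genes). With both drugs against control 11 rose and 1 fell (12.2% and 13.9% of all genes). CENPC, which links centromeric chromatin to the kinetochore, was at 17.2 ± 1.3 TPM in control and 28.01 ± 1.5 TPM with imatinib (log2 fold change 0.68, SE 0.090, limma adjusted p = 9.31e-05). CENPH, of the inner kinetochore, rose by 0.61 (limma adjusted p = 7.35e-05) with imatinib and fell by 0.35 (limma adjusted p = 0.0127) on the log2 scale with MLN4924. Of 14 genes of cohesin and the other condensins, 5 rose with imatinib (26.3% of all genes), 3 with MLN4924 (7.36%) and 9 with both (12.2%). None fell in these comparisons, where 27.5%, 7.11% and 13.9% of all genes fell, nor at an unadjusted p under 0.05 (limma). The cohesin ATPases SMC1A and SMC3 differed from control by -0.0049 and 0.22 with imatinib and were not called.

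Of 30 other mitotic regulators and spindle genes, 16 rose with MLN4924 (7.36% of all genes) and 18 with both drugs (12.2%). By limma none was lower with MLN4924 (7.11% of all genes) and CDC25A was lower with both (13.9%). With imatinib 14 rose and 10 fell (26.3% and 27.5% of all genes). At an unadjusted p under 0.05, none was lower with MLN4924. WEE1, the kinase that restrains CDK1, rose by 0.40 (limma adjusted p = 0.0132) with MLN4924, not called without control replicate 1 or MLN4924 replicate 2 (adjusted p up to 0.0608), and 0.41 (limma adjusted p = 0.00272) with imatinib. PKMYT1, a related kinase, was not called with either drug. Named after their values were seen, CEP55, of abscission, fell by 0.74 (limma adjusted p = 0.000180) on the log2 scale with imatinib, CKS2, a CDK1 subunit, fell by 0.38 (limma adjusted p = 0.00251), and KPNA2, an importin that binds TPX2, fell by 0.35 (limma adjusted p = 0.000710). With MLN4924 added to imatinib they were higher by 0.83, 0.68 and 0.69. Of the 30 genes, 18 rose and 1 fell in that comparison (22.6% and 20.5% of all genes). They were picked from the 10 that fell with imatinib, and no gene was picked this way from the 14 that rose.

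Of 12 genes of the DREAM and MYB-MuvB complexes, 2 rose and 3 fell with imatinib (26.3% and 27.5% of all genes). With both drugs 3 rose (12.2% of all genes). By limma none was called with MLN4924 (2 higher and 2 lower at an unadjusted p under 0.05). MYBL2, B-Myb, was at 111 ± 5.9, 108 ± 0.40, 119 ± 3.8 and 124 ± 2.7 TPM in control, MLN4924, imatinib and both, and its difference of 0.16 with both drugs (limma adjusted p = 0.0498) lost the call under 4 alternative settings and with each left-out library other than control replicate 1 or imatinib replicate 3. LIN9 was not called in any comparison. Of 24 genes of the G1 to S transition and replication, 2 rose and 8 fell with imatinib (26.3% and 27.5% of all genes). With MLN4924 2 rose and 3 fell (7.36% and 7.11% of all genes). CCNE1, cyclin E1, was at 38.3, 39.3 and 38.05 TPM in control, 24.6, 29.98 and 31.8 TPM with imatinib, 49.9, 49.2 and 46.3 TPM with MLN4924 and 46.2, 44.8 and 48.4 TPM with both. It fell with imatinib and rose with MLN4924 (log2 fold changes -0.41, limma adjusted p = 0.00179, and 0.32, limma adjusted p = 0.0278). The rise was not called without any 1 control or MLN4924 library, nor with no filter on low values, and CCNE2, cyclin E2, rose by 0.51 (limma adjusted p = 0.0124) with MLN4924.

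**Figure D4:**
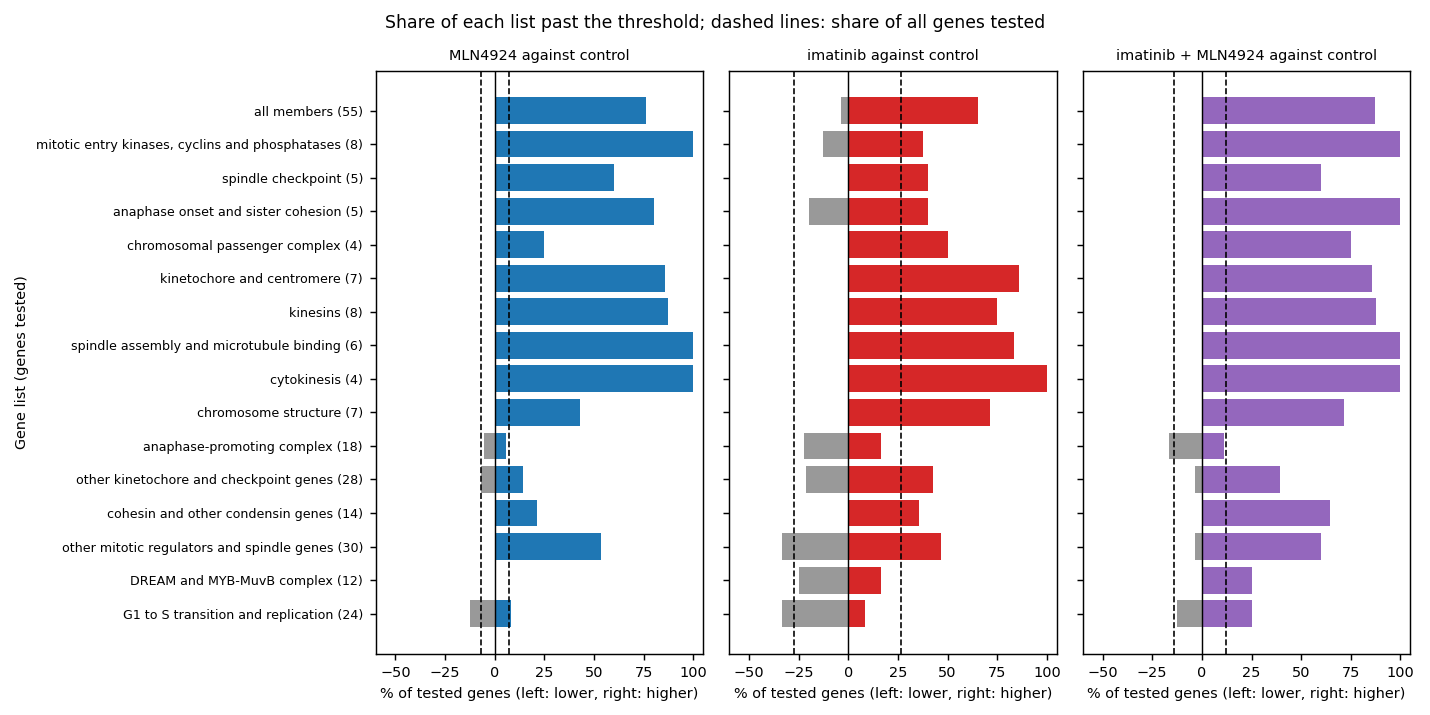
Bars give the percentage of each list's tested genes higher (right, colored) or lower (left, gray) past an adjusted p of 0.05 in the 3 comparisons with control, and dashed lines give the shares over all 15478 genes tested. FOXM1, a list of 1 gene, is not drawn. With MLN4924 42 of the 55 members lie to the right against 7.36% of all genes, and with imatinib 36 of 55 against 26.3%.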

How the data were processed

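RNA of 12 K562 libraries was sequenced from poly(A) RNA. The authors used fastp for trimming, HISAT2 for alignment against hg38 and StringTie for quantification, and deposited TPM per gene; the processing notes also name featureCounts and GRCh38. Per-gene annotation was matched for 61369 identifiers in GENCODE release 44. No annotation version is given in the sources used here, 691 assembled loci were left out, and pseudogene reads may be split.

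limma 3.58.1 (trend, R 4.3.3) was fitted to log2(TPM + 1) with 1 coefficient per group over all 12 libraries and the 15478 genes that reached 1 TPM in 3 or more libraries, with Benjamini-Hochberg adjustment and a threshold of 0.05. A count model was not applicable to TPM. Tables and figures used Python 3.11.15, pandas 2.3.3 and matplotlib 3.10.9. Fits were tested on simulated data. Members and lists were chosen with earlier results of these data known. Named were fixed key genes, the largest changes per role and comparison, all interaction calls and the first 2 genes of each other list; other genes were named after their values were seen. Alternatives changed the pseudocount, filter, scaling, replicate block and libraries. Deviations of same-numbered libraries of different groups had a median r of 0.012 over 18 pairs (-0.059 to 0.19). Over the 36 other pairs the median was -0.0065 (-0.12 to 0.073). The highest r was that of imatinib replicate 3 with imatinib + MLN4924 replicate 3, so whether the numbers pair libraries was not settled.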

Additional observations from a re-analysis of the deposited data

Results flagged for a closer look

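The effect of imatinib differed with and without MLN4924, by limma's test of the interaction, for 6 members. All 6 were negative, where 7.35% of all genes tested were negative and 9.06% positive. Among the first 2 genes of each other list it differed for ANAPC1 of the anaphase-promoting complex. Over that whole list of 18 genes the interaction was positive for 2 (9.06% of all genes) and negative for 1 (7.35% of all genes). The differences, as the log2 effect with MLN4924 minus that without, were -0.74 for NUSAP1, -0.49 for DLGAP5, -0.46 for CENPE, -0.43 for NUF2, -0.36 for KIF4A and -0.29 for CCNB2. For ANAPC1, which fell with imatinib, the difference was 0.57. Its call was lost without any 1 MLN4924 or imatinib + MLN4924 library, without imatinib replicate 1 or 2, and with no filter on low values. The calls of CENPE, NUF2, KIF4A and CCNB2 held in 2, 3, 2 and 4 of the 12 fits that left out a library, while those of NUSAP1 and DLGAP5 held in all 12.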

How the results depend on the processing

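No call changed direction under any alternative that was run. Of 4633 single-gene values 4348 kept their side of the threshold, 253 lost the call and 32 gained it. Of the 4348, 77 differed in sign with neither value past the threshold. The count of members lower with imatinib was 2 and fell to 0 after rescaling without mitochondrial transcripts (4260 and 3703 over all genes tested). The count lower with MLN4924 was 0 and became 1 (SPC24) under the 5 TPM filter and under median-of-ratios scaling. The count higher with both drugs against MLN4924 was 19 and fell to 12 with only the libraries compared (1196 and 932 over all genes tested). The count of negative interactions was 6 and fell to 3 with no filter (over all genes tested, 1138 of 15478 and 730 of 32062). With the replicate block, 36 members were higher with imatinib, 40 with MLN4924 and 50 with both against control (4023, 1127 and 1863 over all genes). It gave 29 higher with both against imatinib, 17 with both against MLN4924, and 4 negative interactions (3473, 1166 and 1120 over all genes). Whether the numbers pair the libraries was not settled.

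With each library left out in turn, the counts ranged from 27 to 35 higher and 1 to 3 lower with imatinib, 34 to 43 higher and 0 to 1 lower with MLN4924, 45 to 49 higher with both against control, 22 to 30 higher with both against imatinib, 5 to 21 higher and 0 to 1 lower with both against MLN4924, and 0 to 1 positive and 2 to 8 negative interactions. Over all genes tested, 3460 to 4089 were higher and 3633 to 4400 lower with imatinib in these fits. With MLN4924 660 to 1336 were higher and 680 to 1337 lower. With both drugs 1317 to 2073 were higher against control and 2575 to 3876 against imatinib. Against MLN4924 542 to 1382 were higher and 466 to 1884 lower. Of the interactions 574 to 2368 were positive and 481 to 1611 negative. Depth is unknown, so no counting error can be given.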
